A study of Mus musculus with 12 samples.

Results

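The comparison put the tumors of both PD-L1-binding treatments on 1 side, 4 from mice given ALPN-202 and 4 from mice given anti-PD-L1, and set them against 4 tumors from mice given an Fc control. Treated tumors were thus 8 of the 12 sequenced, chosen by their treatment labels with no measured value. All 12 were MC38/hPD-L1 tumors under the skin of female C57BL/6NJ mice that were 8 to 10 weeks old at study start. Each mouse had a single dose on day 8, of 100 µg ALPN-202, 100 µg anti-PD-L1 or 75 µg Fc control, and its tumor was taken 72 h later. MC38 is a mouse colon adenocarcinoma line, here transduced to carry human PD-L1, and the host mice kept their own PD-L1 gene. ALPN-202 is an engineered variant of the human CD80 domain fused to an Fc, with CD28, CTLA-4 and human PD-L1 as its targets, whereas the anti-PD-L1 antibody durvalumab has human PD-L1 alone. The paper measured no binding of ALPN-202 to mouse PD-L1, and states that it leaves the mouse PD-1 and PD-L1 interaction unblocked. The human PD-L1 transgene was not analysed here, so values of *Cd274* are those of the mouse gene. The question was which genes moved the same way in both arms.

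PD-L1, on tumor and myeloid cells, engages PD-1 on T cells, and the phosphatases that PD-1 recruits dampen signals from the T cell receptor and from CD28. CD28 is the costimulatory receptor for CD80 and CD86, and CTLA-4 competes with it for both ligands. Blocking PD-L1 is known to release T cells in tumors, which then make IFNγ, and IFNγ in turn raises PD-L1 itself and a set of GTPases, chemokines and antigen presentation genes.

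Total counts were 3988266 to 10692817 per tumor, and levels below are CPM, counts scaled to a common library size with TMM normalization, which are not corrected for gene length. Bulk tumor RNA cannot tell fewer cells of a type from less RNA per cell. The libraries of ALPN-202 tumor 4 and Fc control tumor 1 stood apart by transcript length. Genes with a longest transcript of at most 1542 bases lay at a median of 1.02 and 0.74 log2 units above the median tumor in them, against -0.17 to 0.14 in the other 10. ALPN-202 tumor 4 also had the lowest total, 3988266 counts, and Fc control tumor 1 the next lowest, 6790794. Ribosomal protein genes held 5.18% of counts in ALPN-202 tumor 4, against 1.21% to 3.18% in the other tumors. Adipocyte genes summed to 1737 CPM in ALPN-202 tumor 4, 9143 and 1829 CPM in anti-PD-L1 tumors 2 and 4 and 1221 CPM in Fc control tumor 4, against 53.8 to 206 CPM in the other 8. Keratinocyte genes summed to 608 CPM in ALPN-202 tumor 2 and 509 CPM in Fc control tumor 2, against 14.4 to 195 CPM in the others. Of 12 colon epithelial markers, 6 were too low to be tested, among them *Cdx2*, *Vil1* and *Krt20*, so these defining markers of the labelled origin were at or near 0. The other 6 markers, *Epcam*, *Cdh1*, *Krt8*, *Krt18*, *Krt19* and *Lgals4*, were measured, and the list summed to 85.2 CPM in ALPN-202 tumor 4, 804 and 156 CPM in anti-PD-L1 tumors 2 and 4 and 94.4 CPM in Fc control tumor 4, against 17.2 to 27.2 CPM in the other 8. These were the same 4 tumors as those with high adipocyte genes, and which cells the reads of these 6 markers came from was not tested. T cell genes were present in every tumor, at a sum of 291 to 644 CPM in ALPN-202, 120 to 296 CPM in anti-PD-L1 and 139 to 227 CPM in Fc control tumors.

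No gene passed the test in the comparison of both arms with the Fc control. The contrast was the mean of the ALPN-202 and anti-PD-L1 groups minus the Fc control group in edgeR's quasi-likelihood fit of all 12 tumors. Of 14142 genes tested, 0 passed an adjusted p of 0.05 (0% of genes), and the smallest adjusted p was 0.978. At an unadjusted p under 0.05, 367 genes were higher (2.6% of genes tested) and 183 were lower (1.29%), 550 in all (3.89%). If no gene differed, a share of about 0.05 would reach that p, so 3.89% was no excess. The ALPN-202 arm alone had 1018 higher (7.2%) and 280 lower genes (1.98%) at that p, and the anti-PD-L1 arm alone 203 (1.44%) and 89 (0.629%). DESeq2 called 0 genes higher and 1 lower, with 844 genes at an unadjusted p under 0.05, and limma-voom with sample quality weights called 0, with 2718 such genes. A gene was also asked to differ in each arm by itself, by the larger of its 2 arm p-values. By that criterion 0 genes passed (0%; smallest adjusted p = 1, edgeR), and 25 higher genes (0.177%) and 22 lower genes (0.156%) had an unadjusted p under 0.05 in both arms, 47 in all (0.332%). Both arm comparisons use the same 4 Fc control tumors, so a high or low control tumor moves them together.

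The genes described next were those with an unadjusted p under 0.05 in the shared contrast and a log2 fold change of the same sign and at least 0.5 in each arm. These shared-direction genes were chosen on their values and carry no test. They numbered 161 higher (1.14% of genes tested) and 36 lower (0.255%), 197 in all (1.39%). By comparison, 4349 genes were above 0 in both arms (30.8%) and 3894 below 0 in both (27.5%), of which 581 (4.11%) and 107 (0.757%) reached 0.5 in each, 688 in all (4.86%). The plot of one arm against the other shows the cloud of all genes centred on 0, with median log2 fold changes of 0.04 in the ALPN-202 arm and -0.03 in the anti-PD-L1 arm.

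**Figure D1:**
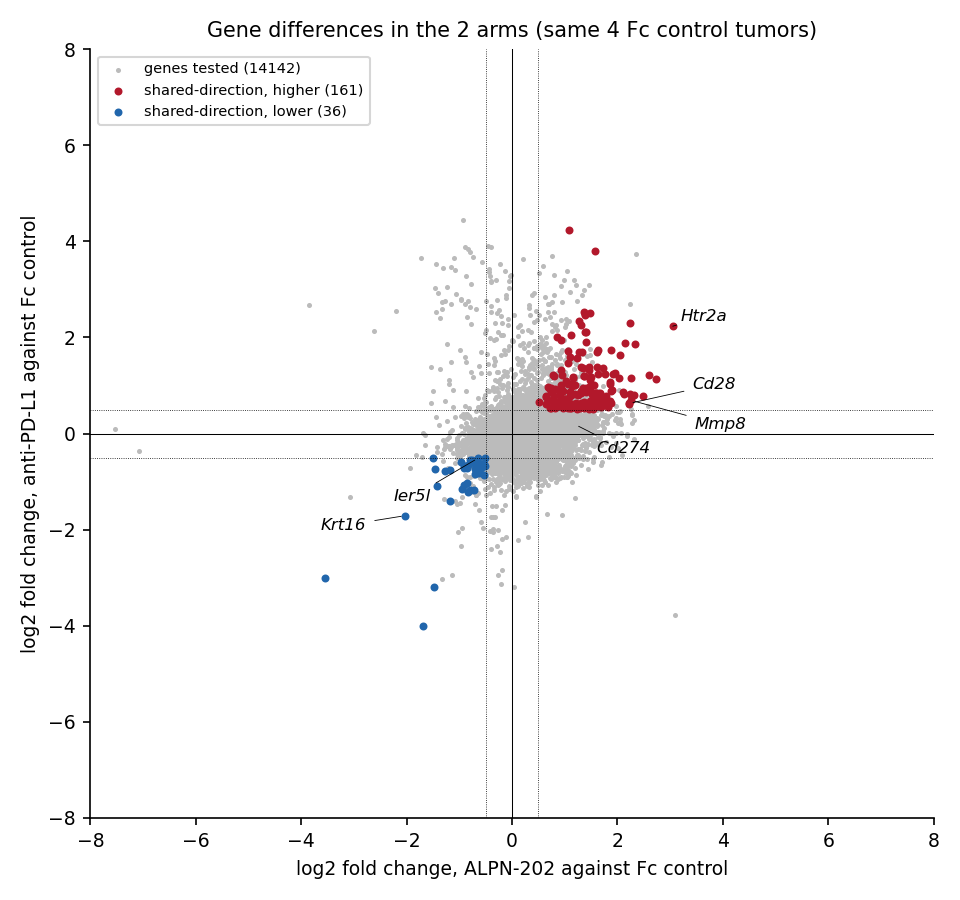
Log2 fold change against Fc control in the ALPN-202 arm (x axis) and in the anti-PD-L1 arm (y axis), 1 point per gene (14142 genes), with dotted lines at 0.5 and -0.5. Red points are the 161 shared-direction genes that were higher and blue points the 36 that were lower, chosen by these same values; both axes share the 4 Fc control tumors.

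The higher shared-direction genes were not carried by all treated tumors alike. ALPN-202 tumors 1, 2 and 3 lay above every Fc control tumor for 157, 153 and 157 of the 161 genes, and anti-PD-L1 tumor 2 for 151. ALPN-202 tumor 4 did so for 56, and anti-PD-L1 tumors 1, 3 and 4 for 104, 72 and 77. Of the 36 lower genes, ALPN-202 tumors 1 to 4 lay below every Fc control tumor for 28, 28, 32 and 17, and anti-PD-L1 tumors 1 to 4 for 22, 30, 26 and 27. Anti-PD-L1 tumor 2, which stood with the ALPN-202 tumors for the higher genes, was also the tumor with the most adipocyte RNA, and the part of that RNA in these counts was not tested. The longest transcripts of the higher genes had a median of 3420 bases and those of the lower genes 1595 bases, against 2944 bases over all genes tested. Their mean levels had medians of 4.53 CPM and 3.56 CPM, against 31.0 CPM over all genes. Protein-coding genes made up 95.0% of the higher and 69.4% of the lower genes, against 91.0% of all genes tested.

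**Figure D2:**
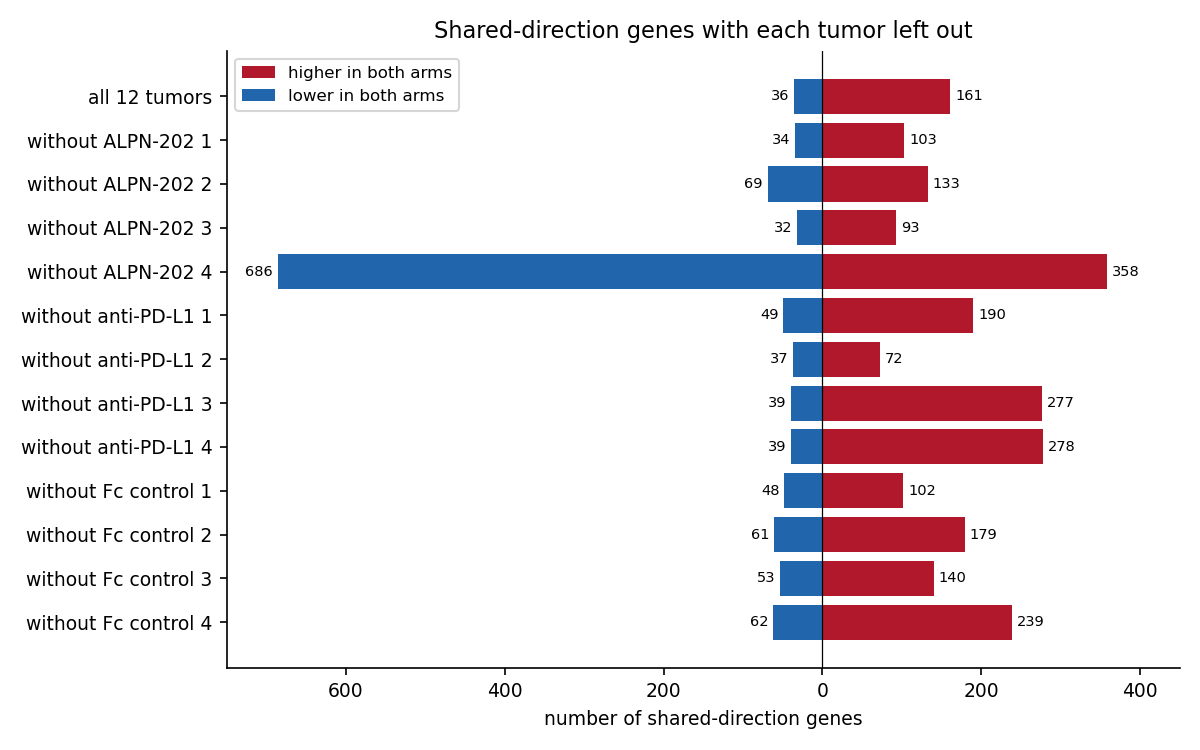
Number of shared-direction genes with all 12 tumors and with each tumor left out, higher in both arms to the right (red) and lower in both arms to the left (blue). With all tumors there were 161 and 36; without anti-PD-L1 tumor 2 there were 72 and 37, and without ALPN-202 tumor 4 there were 358 and 686.

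Single tumors moved these counts by more than 1.5 times. Without ALPN-202 tumor 4, which leaves Fc control tumor 1 as the only library with the length trend, 358 genes were higher and 686 lower. Without anti-PD-L1 tumor 2 there were 72 higher genes, of which 55 were among the 161. Higher genes numbered 103 and 93 without ALPN-202 tumors 1 and 3, 277 and 278 without anti-PD-L1 tumors 3 and 4, and 102 without Fc control tumor 1. Lower genes numbered 69 without ALPN-202 tumor 2, and 61 and 62 without Fc control tumors 2 and 4. Without both libraries with the length trend, 196 genes were higher and 81 lower, sharing 100 and 24 with the sets of all tumors, and edgeR then called 1 gene. That gene was *Thbs1*, thrombospondin 1, named here after its values were seen, at a log2 fold change of 1.12 (adjusted p = 0.0494 without the 2 libraries and 0.978 with all tumors). *Thbs1* stood at 436, 372, 404 and 47.02 CPM in ALPN-202 tumors, 189, 195, 155 and 136 CPM in anti-PD-L1 tumors and 41.3, 138, 113 and 111 CPM in Fc control tumors. Apart from ALPN-202 tumor 4, all treated tumors except anti-PD-L1 tumor 4 were above every control.

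Among the genes of the PD-1 and CD28 axis, the shared contrast was mostly the ALPN-202 arm. Of 13 genes listed, 12 were tested, 6 were higher in both arms (30.8% of all genes were) and 0 lower in both (27.5% of all genes), and 2 had an unadjusted p under 0.05, against 2.6% of all genes higher at that p. Their median log2 fold change was 0.56 in the shared contrast, 1.02 in the ALPN-202 arm and 0.02 in the anti-PD-L1 arm, against -0.001, 0.04 and -0.03 over all genes. *Cd274*, the mouse PD-L1 gene (chr19:29441945-29462585, NCBIM37), was at 300.1, 206, 194 and 169.5 CPM in the 4 ALPN-202 tumors, 142, 104, 104 and 84.4 CPM in the 4 anti-PD-L1 tumors and 125, 93.1, 67.5 and 95.8 CPM in the 4 Fc control tumors. Every ALPN-202 tumor exceeded every control, while 1 of 4 anti-PD-L1 tumors did. The shared log2 fold change was 0.69 (SE 0.21), made of 1.19 in the ALPN-202 arm and 0.19 in the anti-PD-L1 arm. *Cd28* (chr1:60773644-60830203) stood at 11.4, 8.39, 7.18 and 2.29 CPM in ALPN-202, 2.62, 3.41, 2.24 and 1.60 CPM in anti-PD-L1 and 2.34, 1.62, 1.203 and 1.31 CPM in Fc control tumors. It was the only axis gene with at least 0.5 in each arm, 2.22 (SE 0.44) with ALPN-202 and 0.63 (SE 0.44) with anti-PD-L1. Its groups overlapped in ALPN-202 tumor 4 and in 2 anti-PD-L1 tumors.

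*Pdcd1*, which encodes PD-1, was at 32.1, 24.3, 27.4 and 31.4 CPM in ALPN-202 tumors, 6.56, 11.4, 5.69 and 1.96 CPM in anti-PD-L1 tumors and 12.4, 8.67, 3.78 and 6.55 CPM in Fc control tumors. *Ctla4* followed the same order, at 19.8, 11.7, 18.3 and 13.4 CPM with ALPN-202, 6.12, 7.12, 5.13 and 2.22 CPM with anti-PD-L1 and 9.02, 6.01, 3.52 and 3.93 CPM with the Fc control. For both genes the ALPN-202 tumors lay above all others and the anti-PD-L1 tumors overlapped the controls. *Pdcd1lg2*, the gene for the other PD-1 ligand PD-L2, was at 49.5, 14.6, 15.9 and 15.7 CPM, 7.98, 13.03, 8.95 and 4.27 CPM and 14.4, 5.55, 4.38 and 8.57 CPM in ALPN-202, anti-PD-L1 and Fc control tumors, and 1 ALPN-202 tumor was far above the other 3. *Cd80* went opposite ways in the arms, at 9.77, 9.91, 9.17 and 12.7 CPM in ALPN-202 tumors, 6.23, 5.82, 4.94 and 3.47 CPM in anti-PD-L1 tumors and 9.02, 6.701, 6.36 and 7.16 CPM in Fc control tumors. All ALPN-202 tumors were above and all anti-PD-L1 tumors below every control, and the shared value of -0.005 (SE 0.19) was made of 0.50 in the ALPN-202 and -0.51 in the anti-PD-L1 arm. The difference between the arms was 1.02 log2 units (adjusted p = 0.313, edgeR).

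None of the remaining 6 axis genes had an unadjusted p under 0.05 in the shared contrast (edgeR). Their shared log2 fold changes were 0.74 (SE 0.51) for the costimulatory receptor *Icos*, 0.43 (SE 0.34) for the ligand *Cd276* and 0.36 (SE 0.25) for *Ptpn6*, which encodes the phosphatase SHP-1. They were 0.26 (SE 0.32) for the CD28 ligand *Cd86*, 0.16 (SE 0.17) for the ICOS ligand *Icosl* and 0.16 (SE 0.20) for *Ptpn11*, the gene of the PD-1-recruited phosphatase SHP-2. An exact two-sided permutation test of the mean log2 CPM of 8 against 4 tumors was run for each of the 12 genes, where the smallest p possible was 0.00404. The exact permutation test gave p = 0.0283 for *Cd28*, p = 0.0606 for *Cd274* and 0.194 to 0.998 for the other 10, unadjusted.

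**Figure D3:**
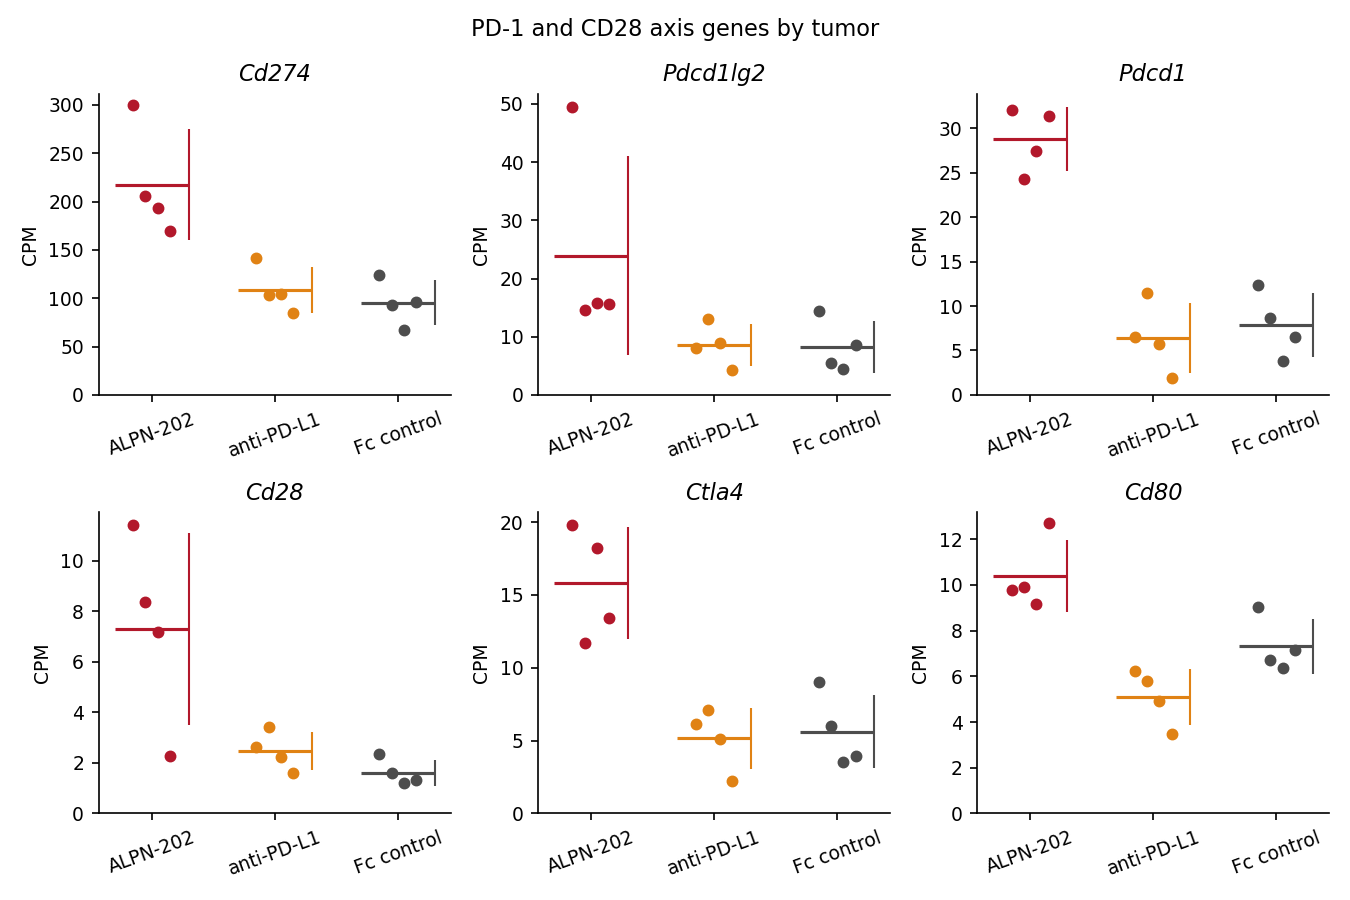
Normalized level (CPM) of 6 PD-1 and CD28 axis genes in each tumor (points) by group, with the group mean (horizontal bar) and 1 SD to either side (vertical line, ended at 0; n = 4 per group). *Cd274*, *Pdcd1*, *Ctla4*, *Pdcd1lg2* and *Cd80* had all ALPN-202 tumors above all Fc control tumors, and anti-PD-L1 tumors overlapped the controls for all but *Cd80*, where they were lower.

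The promoter of *Cd274*, the mouse gene of PD-L1, is shown as RefSeq gives it at chr19:29367188-29367487 (GRCm38.p6, plus strand), 250 bases before to 50 bases after the start. The interferon-response core GAAANNGAA was searched on both strands, and its single match, on the opposite strand, is in capitals.
Cd274: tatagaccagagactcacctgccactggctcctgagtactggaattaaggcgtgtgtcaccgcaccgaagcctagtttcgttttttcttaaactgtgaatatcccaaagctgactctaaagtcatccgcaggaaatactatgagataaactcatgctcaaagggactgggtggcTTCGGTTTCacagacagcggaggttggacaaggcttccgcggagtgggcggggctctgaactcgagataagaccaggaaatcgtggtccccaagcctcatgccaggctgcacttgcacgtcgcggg
That core was found in 8.56% of 32851 RefSeq promoters of the same length. Among the shared-direction genes with a promoter in the table it was found in 9 of 122 higher (7.38%) and 1 of 16 lower genes (6.25%), shares near that of all promoters.

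Complete separation of treated from control tumors was rare. In 16 genes all 8 treated tumors lay above all 4 Fc control tumors (0.113% of genes tested) and in 17 all lay below (0.12%). The 12 tumors can be split into 8 and 4 in 495 ways. If treatment had no bearing on the values, 1 in 495 genes would separate upward and 1 in 495 downward. Both shares were below 1 in 495, so these counts do not show a shared effect of treatment. The 4 ALPN-202 tumors alone were above all controls in 378 genes (2.67%) and the 4 anti-PD-L1 tumors alone in 155 (1.1%). Of the genes with all 8 apart, 7 higher and 2 lower had a symbol, a mean of at least 1 CPM and at least 0.5 in each arm. *Ebf2* (chr14:67852129-68048604), a transcription factor of adipocyte precursors, stood at 1.38, 1.24, 1.695 and 0.9796 CPM in ALPN-202, 1.09, 3.81, 0.932 and 1.78 CPM in anti-PD-L1 and 0.501, 0.462, 0.344 and 0.706 CPM in Fc control tumors. *Olfml1*, a secreted olfactomedin-domain protein, was at 1.38, 1.24, 2.19 and 1.31 CPM in ALPN-202 tumors, 1.09, 3.81, 0.653 and 1.16 CPM in anti-PD-L1 tumors and 0.334, 0.578, 0.4297 and 0.605 CPM in Fc control tumors. In *Mansc1*, a membrane protein gene, the values were 3.99, 2.76, 2.49 and 1.63 CPM with ALPN-202, 1.42, 5.21, 1.68 and 1.78 CPM with anti-PD-L1 and 0.669, 0.924, 0.945 and 1.41 CPM with Fc control. All 3 were highest in anti-PD-L1 tumor 2, the tumor with 9143 CPM of adipocyte genes, and so was *Kif5c*, a kinesin heavy chain, at 5.09, 4.098, 3.39 and 3.92 CPM in ALPN-202, 2.62, 12.03, 2.98 and 4.00 CPM in anti-PD-L1 and 2.17, 2.31, 2.32 and 2.62 CPM in Fc control tumors. The lowest treated and the highest control value of *Kif5c* both round to 2.62 CPM. The part of adipocyte RNA in these values was not tested.

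Of the other 3 higher genes, *Zfp229* and *Fbxo32* were more even between tumors. *Zfp229*, a zinc finger gene, was at 4.13, 2.76, 2.49 and 1.96 CPM in ALPN-202, 2.41, 2.71, 2.704 and 3.73 CPM in anti-PD-L1 and 1.003, 1.62, 1.81 and 1.51 CPM in Fc control tumors, and its log2 fold changes were 0.93 (SE 0.30) in the ALPN-202 and 0.94 (SE 0.29) in the anti-PD-L1 arm. For *Fbxo32*, which encodes the muscle ubiquitin ligase subunit atrogin-1, the values were 11.7, 8.48, 11.9 and 10.8 CPM with ALPN-202, 11.2, 13.5, 8.58 and 8.53 CPM with anti-PD-L1 and 5.18, 7.97, 7.65 and 6.45 CPM with Fc control, with 0.65 (SE 0.22) in the ALPN-202 and 0.61 (SE 0.22) in the anti-PD-L1 arm. *Herc3*, a HECT-domain ubiquitin ligase gene that overlaps *Nap1l5*, had 10.5, 9.91, 10.5 and 5.23 CPM, 7.33, 7.62, 5.22 and 4.98 CPM and 3.68, 4.74, 4.899 and 4.03 CPM in ALPN-202, anti-PD-L1 and Fc control tumors. ALPN-202 tumor 4 and anti-PD-L1 tumors 3 and 4 were close to the highest control. *Htr2a*, the serotonin 2A receptor gene, was named after its values were seen, being under 1 CPM on average. It was at 1.93, 2.001, 1.296 and 0.327 CPM in ALPN-202, 0.765, 1.404, 0.559 and 0.622 CPM in anti-PD-L1 and 0.167, 0.231, 0.172 and 0.101 CPM in Fc control tumors, for a shared log2 fold change of 2.64 (SE 0.51).

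**Figure D4:**
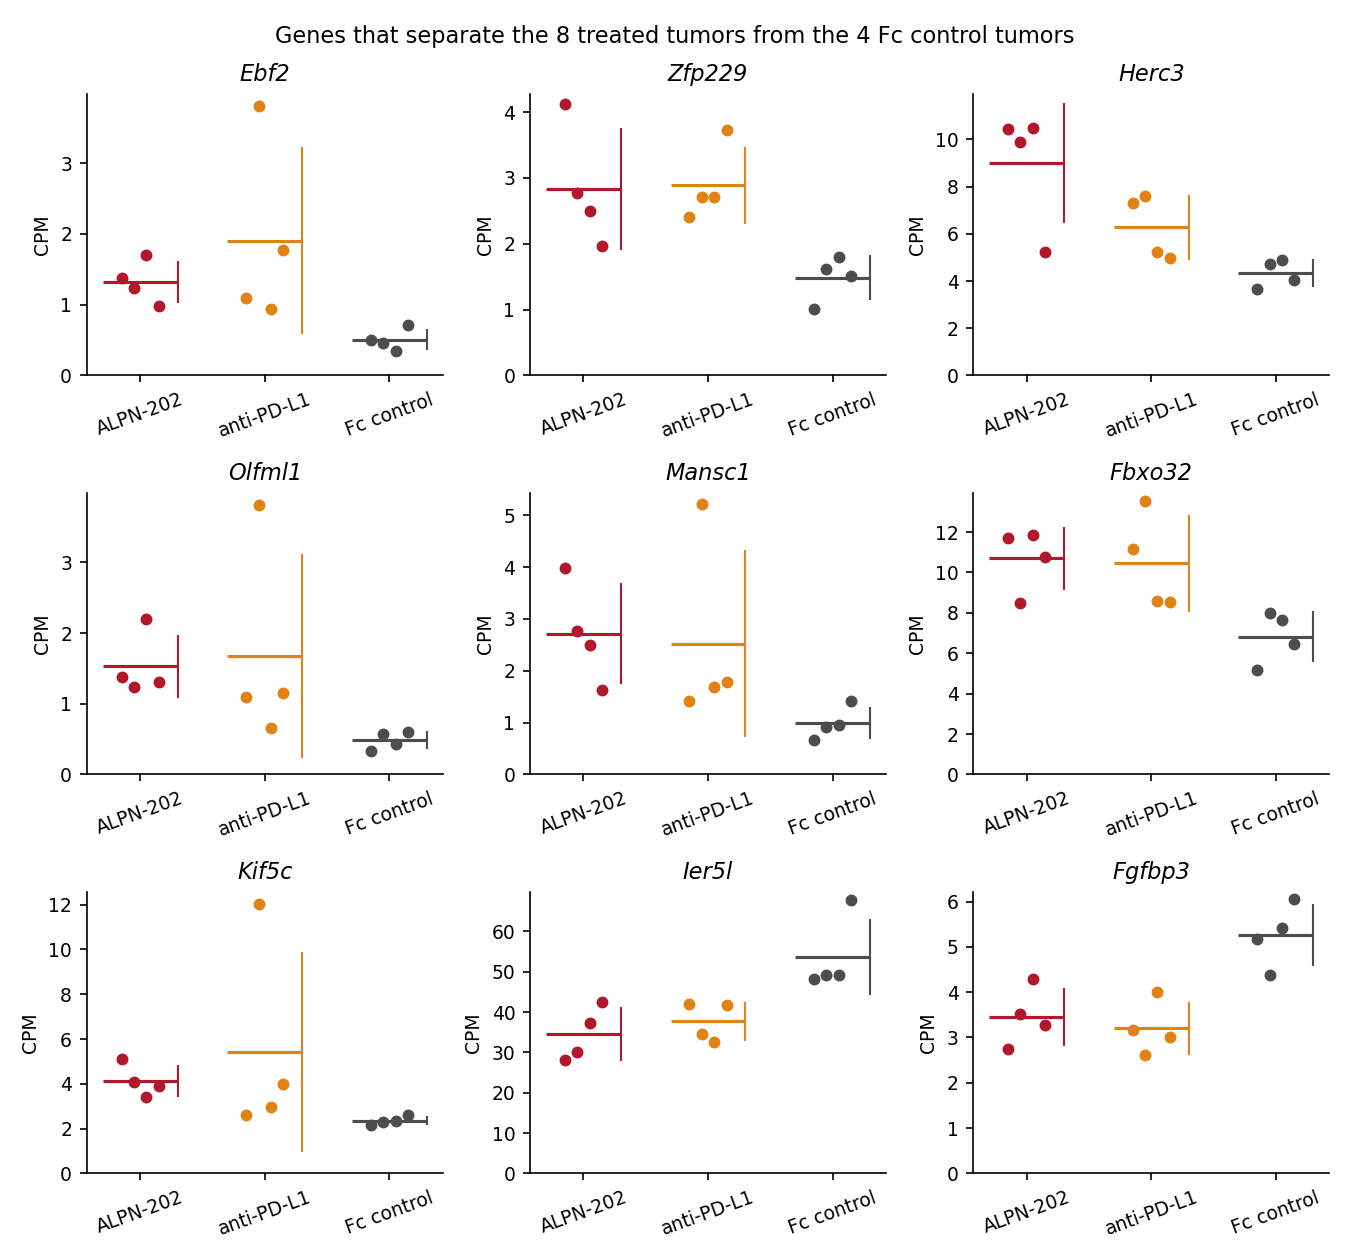
Normalized level (CPM) by tumor (points) and group of 9 named genes with a mean of at least 1 CPM and at least 0.5 log2 in each arm. In each of them all 8 treated tumors lay above or below all 4 Fc control tumors. Bars are group means and vertical lines 1 SD to either side, ended at 0 (n = 4 per group). 7 genes were higher and *Ier5l* and *Fgfbp3* lower, and *Ebf2*, *Olfml1*, *Mansc1* and *Kif5c* peaked in a single anti-PD-L1 tumor.

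Leukocyte genes were also among the higher genes with the smallest p. *Mmp8*, the neutrophil collagenase, was at 5.23, 5.15, 5.09 and 2.61 CPM in ALPN-202, 1.64, 1.504, 1.96 and 1.07 CPM in anti-PD-L1 and 1.003, 0.693, 0.602 and 1.51 CPM in Fc control tumors. *Ubash3a*, which dampens T cell receptor signaling, had 5.78, 3.53, 6.08 and 0.9796 CPM with ALPN-202, 1.97, 1.604, 1.49 and 0.533 CPM with anti-PD-L1 and 0.167, 0.924, 0.516 and 0.807 CPM with Fc control. In both genes ALPN-202 tumors were above all controls and anti-PD-L1 tumor 4 was within their range, as was anti-PD-L1 tumor 2 for *Mmp8*. *Cyp7b1*, an oxysterol hydroxylase, lay above every control in 7 of 8 treated tumors, with 5.91, 3.53, 4.09 and 4.898 CPM in ALPN-202, 3.72, 4.91, 3.54 and 1.96 CPM in anti-PD-L1 and 2.34, 1.85, 1.72 and 2.12 CPM in Fc control tumors. So did *Carf*, a calcium-responsive transcription factor, with 2.75, 3.72, 1.89 and 3.27 CPM in ALPN-202, 3.17, 2.81, 4.102 and 4.00 CPM in anti-PD-L1 and 2.01, 1.73, 2.06 and 1.41 CPM in Fc control tumors, and it overlaps *Wdr12*. *Olfr56*, at a shared log2 fold change of 0.81 (SE 0.24), is uncertain because its annotated span on chromosome 11 (48792391 to 48948889, NCBIM37) overlaps the interferon-induced GTPase genes *Ifi47*, *Tgtp1* and *Tgtp2*.

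Among the lower genes, *Ier5l*, related to an immediate early gene, was at 28.2, 30.02, 37.4 and 42.5 CPM in ALPN-202, 41.98, 34.5, 32.6 and 41.7 CPM in anti-PD-L1 and 48.3, 49.1, 49.2 and 67.9 CPM in Fc control tumors, a shared log2 fold change of -0.57 (SE 0.15). *Fgfbp3*, which encodes a binding protein of fibroblast growth factors, had 2.75, 3.53, 4.29 and 3.27 CPM with ALPN-202, 3.17, 2.61, 4.01 and 3.02 CPM with anti-PD-L1 and 5.18, 4.39, 5.41 and 6.05 CPM with Fc control. Neither gene's treated tumors overlapped the controls. *Slc25a27*, a mitochondrial uncoupling protein gene, was at 2.89, 2.67, 1.496 and 2.29 CPM, 3.28, 2.11, 4.102 and 2.58 CPM and 3.51, 4.04, 5.59 and 5.04 CPM in ALPN-202, anti-PD-L1 and Fc control tumors, with 7 of 8 treated tumors below every control. *Ucn2*, the stress peptide urocortin 2, had 2.34, 4.77, 3.59 and 2.94 CPM with ALPN-202, 7.87, 4.91, 7.55 and 7.02 CPM with anti-PD-L1 and 4.01, 9.82, 9.54 and 15.6 CPM with Fc control, and overlapped the controls more widely. The wound keratins were highest in Fc control tumor 2, with *Krt16* at 1.65, 2.48, 1.89 and 4.57 CPM in ALPN-202, 7.11, 2.51, 0.932 and 2.13 CPM in anti-PD-L1 and 8.69, 26.1, 2.66 and 3.93 CPM in Fc control tumors. *Krt6b* was at 0 in 3 ALPN-202 and 2 anti-PD-L1 tumors and at most 2.41 CPM in the others, against 2.51, 17.7, 0.859 and 0.202 CPM in Fc control tumors. Keratins share sequence, so the split of their reads is uncertain.

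*Hmgb1* and *Hes1*, named after their values were seen, were below every control in all 8 treated tumors. *Hmgb1*, the chromatin protein and alarmin (chr5:149858278-149865089), was at 10.5, 10.5, 11.3 and 13.7 CPM in ALPN-202, 14.9, 13.4, 13.3 and 13.9 CPM in anti-PD-L1 and 20.4, 18.6, 18.1 and 18.9 CPM in Fc control tumors. It was the 1 gene that DESeq2 called, at a log2 fold change of -0.59 (adjusted p = 0.00143 by DESeq2 and 0.978 by edgeR). *Hes1*, a repressor induced by Notch, had 14.2, 13.3, 18.7 and 24.8 CPM with ALPN-202, 18.5, 20.7, 17.4 and 20.4 CPM with anti-PD-L1 and 30.8, 26.2, 24.9 and 26.8 CPM with Fc control. *Hmgb1* and the histone gene *H2afz* have near-identical copies in the genome, so their counts are uncertain. *H2afz* was at 10.04, 6.39, 5.88 and 15.7 CPM in ALPN-202, 9.84, 5.41, 7.64 and 8.53 CPM in anti-PD-L1 and 44.3, 11.9, 16.8 and 11.2 CPM in Fc control tumors, with its highest value in the control library with the length trend. The small RNA genes *Snord83b* and *Snora16a* lie within *Rpl3* and *Snhg12*, and *Ybey* overlaps *Mcm3ap*, so their lower values of -1.10 (SE 0.36), -0.99 (SE 0.36) and -0.59 (SE 0.21) cannot be told apart from those hosts. *Zfp942*, a zinc finger gene, was at -0.79 (SE 0.27).

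*Mir17hg*, the host transcript of the miR-17-92 cluster (chr14:115442101-115445949, NCBIM37), was among the lower genes at 16.8, 11.4, 9.87 and 23.5 CPM in ALPN-202, 21.3, 15.04, 19.8 and 15.6 CPM in anti-PD-L1 and 30.8, 18.7, 28.96 and 27.3 CPM in Fc control tumors. The groups overlapped through the lowest control, Fc control tumor 2, and the shared log2 fold change was -0.68 (SE 0.23). In lymphocytes and tumors this cluster is known to promote proliferation. The counts are reads of the host transcript on chromosome 14, and mature miRNAs were not analysed here. The sequences that it carries are shown because they group its 6 miRNAs by seed, the bases that pair with targets. They are from RefSeq (GRCm38.p6), with bases 2 to 8 in capitals.
miR-17-5p: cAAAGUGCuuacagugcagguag
miR-20a-5p: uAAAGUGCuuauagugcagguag
miR-18a-5p: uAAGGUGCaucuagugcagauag
miR-19a-3p: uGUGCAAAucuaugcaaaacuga
miR-19b-3p: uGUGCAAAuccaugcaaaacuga
miR-92a-3p: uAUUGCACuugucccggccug
Of the 6, miR-17-5p and miR-20a-5p share the seed AAAGUGC and miR-19a-3p and miR-19b-3p share GUGCAAA, while miR-18a-5p and miR-92a-3p each have their own.

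Among 32 gene lists, those of lymphocytes had higher medians in the ALPN-202 arm than in the anti-PD-L1 arm. So did most other lists, among them macrophage genes (0.77 and -0.18) and neutrophil genes (1.43 and 0.18). Only the lists of adipocytes, colon epithelium, hypoxia and glycolysis, Wnt signaling and sterol synthesis had the lower median with ALPN-202. The median over 21 T cell lineage genes was 0.85 in the shared contrast, made of 1.76 in the ALPN-202 arm and 0.04 in the anti-PD-L1 arm; 13 of 21 were above 0 in both arms (30.8% of all genes were), and 10 had an unadjusted p under 0.05 upward (2.6% of all genes). *Cd247*, the CD3 ζ chain, which overlaps *Pou2f1*, was at 2.05 (SE 0.40) in the ALPN-202 and 0.46 (SE 0.40) in the anti-PD-L1 arm, and the T cell surface receptors *Cd6* and *Cd2* at 2.02 and 1.79 in the ALPN-202 arm and 0.45 and 0.26 in the anti-PD-L1 arm. The 14 cytotoxic genes had a median of 1.43 in the ALPN-202 arm and -0.21 in the anti-PD-L1 arm, and 3 of 14 were above 0 in both. *Gzmb*, granzyme B, was at 167, 88.9, 94.02 and 83.6 CPM in ALPN-202, 37.1, 35.1, 22.8 and 16.1 CPM in anti-PD-L1 and 41.8, 30.04, 15.04 and 23.9 CPM in Fc control tumors. Every ALPN-202 tumor was above every other tumor, and the anti-PD-L1 tumors lay inside the control range. *Prf1*, perforin, had 1.44 (SE 0.32) in the ALPN-202 arm and 0.24 (SE 0.31) in the anti-PD-L1 arm. Of 11 dendritic cell genes 6 were above 0 in both arms, and *Ccr7*, the lymph node homing receptor, was at 0.98 (SE 0.31) in the ALPN-202 and 0.39 (SE 0.31) in the anti-PD-L1 arm. *Xcr1* and *Clec9a*, of cross-presenting dendritic cells, were at 2.27 and 1.69 with ALPN-202 and 0.23 and -0.24 with anti-PD-L1. None of these genes passed the test.

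IFNγ-response genes were above 0 in both arms in 14 of 20 (30.8% of all genes), with medians of 0.67 in the ALPN-202 and 0.07 in the anti-PD-L1 arm. In this list 6 genes had an unadjusted p under 0.05 upward (2.6% of all genes). *Gbp6*, a guanylate-binding protein, was at 67.4, 57.6, 51.7 and 33.96 CPM in ALPN-202, 47.5, 32.3, 34.2 and 28.4 CPM in anti-PD-L1 and 27.6, 26.2, 24.9 and 30.7 CPM in Fc control tumors, above every control in 7 of 8 treated tumors. *Gbp5* and the nitric oxide synthase *Nos2* were at shared log2 fold changes of 0.73 (SE 0.26) and 1.03 (SE 0.38). Type I interferon genes were above 0 in both arms in 11 of 20, with *Ifit2* at 0.44 (SE 0.19), and MHC class II genes in 0 of 10.

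*Ptgs2*, cyclooxygenase 2 (chr1:151947254-151955140), was the named list gene with complete separation upward. It was at 474, 411, 322 and 227 CPM in ALPN-202, 254, 195, 199.7 and 260.3 CPM in anti-PD-L1 and 189.5, 191, 169 and 134 CPM in Fc control tumors, with its lowest treated tumor close to the highest control. Its log2 fold change was 1.07 (SE 0.23) in the ALPN-202 and 0.41 (SE 0.22) in the anti-PD-L1 arm, which kept it out of the shared-direction genes. Of 17 genes of the TNF and NF-κB response, 6 (35.3%) were above 0 in both arms, near the 30.8% of all genes. The A20 gene *Tnfaip3*, *Il1a* and *Birc3* had shared values of 0.65 (SE 0.23), 0.92 (SE 0.34) and 0.42 (SE 0.17).

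Complement, endothelial and matrix lists had medians above 0 in each arm. Other lists did too, among them those of regulatory T cell, neutrophil, IFNγ-response and T cell lineage genes. Of 16 complement and coagulation genes, 13 were above 0 in both arms (30.8% of all genes were) and 7 had an unadjusted p under 0.05 upward (2.6% of all genes), with list medians of 0.94 in the ALPN-202 and 0.38 in the anti-PD-L1 arm. *C3*, the central complement component, was at 685, 457, 647 and 181 CPM in ALPN-202, 224, 814, 176 and 274 CPM in anti-PD-L1 and 68.2, 143, 137 and 286 CPM in Fc control tumors, and *Serping1*, the C1 inhibitor, at 279, 166, 249 and 105 CPM in ALPN-202, 118, 205, 94.9 and 71.6 CPM in anti-PD-L1 and 55.2, 94.9, 72.4 and 119.7 CPM in Fc control tumors. For both genes only ALPN-202 tumors 1 to 3 and anti-PD-L1 tumor 2 were above every control. *C1ra*, which overlaps its copy *C1rb*, and the coagulation factor *F13a1* had shared values of 0.75 (SE 0.28) and 0.65 (SE 0.25). Of 17 endothelial genes 16 were above 0 in both arms, with medians of 0.66 in the ALPN-202 and 0.47 in the anti-PD-L1 arm, though 0 had an unadjusted p under 0.05. Shared values of the endothelial genes *Emcn*, *Tek*, *Lyve1* and *Pecam1* were 0.39 (SE 0.20), 1.34 (SE 0.71), 0.89 (SE 0.50) and 0.66 (SE 0.37). *Tek* was highest in anti-PD-L1 tumor 2, at 18.1 CPM. That was also the only anti-PD-L1 tumor above every control for *Pecam1*, *Lyve1* and *Emcn*, at 162, 10.2 and 22.4 CPM. The part of adipocyte RNA in these endothelial values was not tested. Fibroblast and matrix genes were above 0 in both arms in 14 of 20. Regulatory T cell genes were so in 5 of 6, with medians of 1.09 in the ALPN-202 and 0.45 in the anti-PD-L1 arm and 0 at an unadjusted p under 0.05.

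Lists with medians below 0 in each arm were those of keratinocytes, dividing cells, hypoxia and stress. Keratinocyte genes were so in 9 of 11 (27.5% of all genes), with medians of -0.41 in the ALPN-202 and -1.40 in the anti-PD-L1 arm. *Krt1* and *Krt14* were at -2.05 (SE 1.28) and -0.98 (SE 0.70) in the shared contrast, and the list's sums of 14.4 to 608 CPM in ALPN-202 and 19.6 to 117 CPM in anti-PD-L1 tumors, against 60.7 to 509 CPM in Fc control tumors, overlapped. Of 24 cell cycle genes 14 were below 0 in both arms, with medians of -0.11 in the ALPN-202 and -0.19 in the anti-PD-L1 arm. *Ccna2*, cyclin A2, was at 182, 204, 203 and 209 CPM in ALPN-202, 192, 180.1, 241 and 209.8 CPM in anti-PD-L1 and 261, 231, 238 and 231 CPM in Fc control tumors, below every control in 7 of 8. Hypoxia and glycolysis genes were below 0 in both arms in 13 of 20 and stress and unfolded protein response genes in 9 of 15, among them *Herpud1* at -0.30 (SE 0.12). The p53 target *Bbc3*, which encodes the cell death protein PUMA, lay below every control in all 8 treated tumors at -0.29 (SE 0.13), and the immediate early gene *Ier2* in 6 of 8 at -0.39 (SE 0.14). Their lists did not go the same way. Of 13 p53 targets, 4 were above 0 in both arms (30.8% of all genes were) and 4 below. Of 16 immediate early genes, 9 were above 0 in both arms and 3 below, with medians of 0.31 in the ALPN-202 and 0.03 in the anti-PD-L1 arm. Sterol synthesis genes parted between the arms, with medians of -0.59 in the ALPN-202 and 0.13 in the anti-PD-L1 arm. *Scd2*, a fatty acid desaturase, was at 483, 605, 568 and 508 CPM in ALPN-202, 1160, 888, 1270 and 1687 CPM in anti-PD-L1 and 748, 1196, 1586 and 1250 CPM in Fc control tumors. The sterol enzymes *Fdft1*, which overlaps *Ctsb*, and *Sqle* were at -0.77 and -0.72 in the ALPN-202 and -0.30 and -0.04 in the anti-PD-L1 arm.

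**Figure D5:**
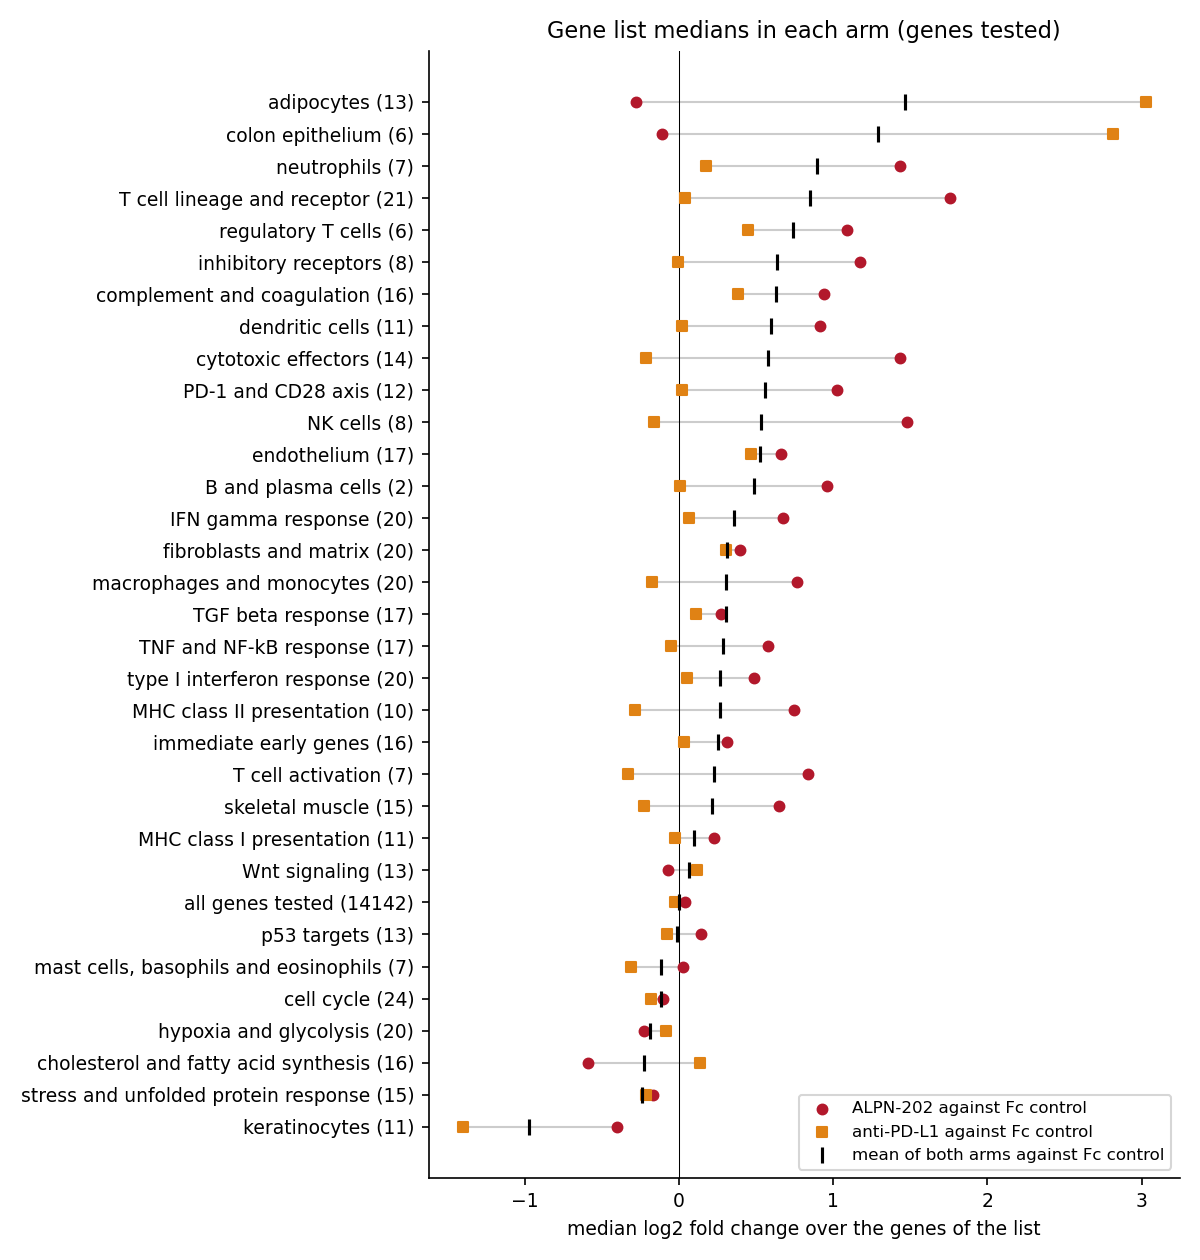
Median log2 fold change against Fc control of each gene list (number of genes tested in parentheses) in the ALPN-202 arm (circles), the anti-PD-L1 arm (squares) and the shared contrast (black ticks). T cell lineage genes had 1.76 and 0.04 in the arms, complement genes 0.94 and 0.38, and endothelial genes 0.66 and 0.47, against 0.04 and -0.03 over all 14142 genes.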

How the data were processed

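RNA was sequenced from 12 tumors, 4 per group. The deposited counts are raw reads per gene on mouse build NCBIM37, and the deposited TPM values, made by the authors from the same libraries, are scaled for gene length and depth. Tools in the submitters' processing notes were SAMtools 1.2, FastQC 0.11.3, Picard 1.134, TopHat 1.4.1 and HTSeq 0.4.1, while the study's methods name STAR, so the aligner is not settled here, and strand use is not given in the sources used here. No per-sample column was left unmapped (0). Names on more than 1 line (219) stayed out of the named genes, as did 25 names turned into dates by a spreadsheet, with 0.214% of counts.

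Counts were normalized by TMM, filtered with filterByExpr (minimum count 10, total 15) and fitted in edgeR 4.0.16 (R 4.3.3, limma 3.58.1) over 3 groups, with Benjamini-Hochberg adjustment over 14142 genes and a threshold of 0.05. The fit was tested on simulated data. Log2 CPM for the permutation test used a pseudocount of 2, and those p-values are unadjusted because the axis genes were a chosen list. Named genes were, in each direction, the 12 of smallest p among shared-direction genes with a plain symbol and a mean of at least 1 CPM, any of these with complete separation, all axis genes, and up to 4 of each list by p. Some genes that this rule names are not reported here. The lists and members were chosen with earlier results of these data known. Alternatives covered other scalings, filters, DESeq2 1.42.0, limma-voom, TPM with pseudocounts of 1 and 0.1, a replicate block and left-out tumors. Tumors came from separate mice. Figures used Matplotlib 3.10.9, and tables pandas 2.3.3, NumPy 2.4.6 and SciPy 1.17.1 in Python 3.11.15.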

Additional observations from a re-analysis of the deposited data

Results flagged for a closer look

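In 15 of 114 groups of 4 tumors, over 38 named genes, 1 tumor lay far from the other 3 by Dixon's ratio. Independent, normally distributed values would give this in about 5% of groups. These were CPM in the same 12 tumors, for genes many of which were chosen on their values, so the 2 shares cannot be compared. In ALPN-202 tumors, tumor 1 was high for *Pdcd1lg2* (49.5 CPM, others 14.6 to 15.9) and *Gzmb* (167 CPM, others 83.6 to 94.0). ALPN-202 tumor 4, 1 of the libraries with the length trend, was low for *Mmp8* (2.61 CPM, others 5.08 to 5.23), *Herc3* (5.22 CPM, others 9.91 to 10.5) and *Thbs1* (47.0 CPM, others 372 to 436). ALPN-202 tumor 3 was high for *Olfml1* (2.19 CPM, others 1.24 to 1.38). Anti-PD-L1 tumor 2, with the most adipocyte RNA, was high for *Olfml1* (3.81 CPM, others 0.653 to 1.16), *Mansc1* (5.21 CPM, others 1.42 to 1.78), *Kif5c* (12 CPM, others 2.62 to 4.00) and *C3* (814 CPM, others 176 to 274). Among Fc control tumors, tumor 4 was high for *Ier5l* (67.9 CPM, others 48.3 to 49.2) and tumor 1, the other library with the length trend, for *H2afz* (44.3 CPM, others 11.2 to 16.8). *Krt6b* had 1 high tumor in every group, at 1.43 CPM in ALPN-202 (others at 0), 2.41 CPM in anti-PD-L1 (others 0 to 0.301) and 17.7 CPM in Fc control tumors (others 0.202 to 2.51).

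*Cd80* was above every control in all 4 ALPN-202 tumors and below every control in all 4 anti-PD-L1 tumors, an arm difference of 1.02 log2 units that did not pass edgeR's test (adjusted p = 0.313).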

How the results depend on the processing

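Under 28 alternatives, 3373 of 3391 log2 fold changes of named genes kept their sign, and 822 of 832 list medians moved by less than the spread between tumors. In some lists that spread was larger than the median, as for keratinocytes (1.677 against -0.977) and endothelium (0.692 against 0.525). For such lists a median could reach 0 and still count among the 822. Shared-direction genes numbered 302 higher and 167 lower with no filter, 75 and 16 with a strict filter, and 307 and 743 without the 4 tumors with high adipocyte genes. There were 268 higher genes with DESeq2, 40 and 66 with log2(TPM + 1) and log2(TPM + 0.1), and 145 lower genes with limma-voom and quality weights. Lower genes numbered 81 without the 2 libraries with a length trend and 65 without all 5 libraries of both kinds, an alternative chosen after seeing the data. With 1 tumor left out, higher genes ranged from 72 to 358 and lower genes from 32 to 686. Calls were 1 lower gene with DESeq2 (*Hmgb1*) and 1 higher gene without the 2 libraries with a length trend (*Thbs1*).

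Replicate numbers did not pair the tumors. Same-numbered pairs correlated at -0.479 to 0.459 over 12 pairs, and 1 of 12 libraries correlated best with its own number. The fit with the replicate block gave 85 higher and 30 lower genes.

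*Cd80* turned positive with RLE scaling (0.008), the strict filter (0.016), DESeq2 (0.004), limma-voom (0.039), a 2-group fit (0.073), log2(TPM + 1) (0.005), without the 2 (0.053), 4 (0.001) or all 5 libraries (0.156), and ranged from -0.068 to 0.098 with 1 tumor left out. *Ptpn11* ranged from -0.031 to 0.267 so and was -0.014 without all 5 libraries, where *Snord83b* in the anti-PD-L1 arm was 0.198. List medians without all 5 libraries were 0.733 for T cell activation, 0.641 for IFNγ response, 0.526 for type I interferon and 0.275 for MHC class I genes. Neutrophil genes were 0.313 with the strict filter and 0.329 with limma-voom, and keratinocyte genes -2.689 with limma-voom. With 1 tumor left out, medians ranged from -0.034 to 0.684 for T cell activation, -2.663 to -0.368 for keratinocyte and -0.311 to 3.634 for colon epithelial genes. The causes were not tested.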
